A study of Homo sapiens with 74 samples.

Results

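Wild-type Dam-LMNB1 was compared with wild-type Dam in 4 bulk DNA libraries of 1 human cell line, 2 per construct, chosen as the columns of those names in the deposited table of Dam variants. They are 4 of the 74 samples of the series. HEK293T, a transformed human embryonic kidney line, was transiently transfected, so plasmid dose differs from cell to cell. The fusion group was transfected with wild-type Dam joined to lamin B1, and the control group with wild-type Dam alone. For all 4 libraries the labels also give 1 treatment, 1 mM of Shield-1 for 20 hours, and 1 protocol text, written for Dam-LMNB1 with m6A-Tracer and for single cells on a microfluidic device. The labels do not say how far that text holds for the bulk libraries. The most similar groups are the same 2 constructs with V133A Dam, a single-residue variant of the methylase, with 2 libraries each. The labels do not tie the libraries to separate cultures, so the p-values measure only how these libraries differ, and part of that may be technical.

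In DamID, a bacterial adenine methyltransferase marks GATC motifs near the place where the protein it is joined to resides. The restriction enzyme DpnI then cuts only methylated GATC, and the released fragments are sequenced, so the signal is a count per fragment between neighbouring GATC motifs. Lamin B1 is a filament protein of the nuclear lamina, and chromatin that touches it forms lamina-associated domains (LADs), which are known as large, gene-poor and mostly silent regions. Untethered Dam marks DNA wherever it can reach it and serves as the control for accessibility and for copy number.

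The 2 Dam libraries held 4448222 and 3162041 counts and the 2 fusion libraries 10666805 and 4923830. Of 7180359 fragments in the table (median length 263 bp), 13.6% and 13.7% had at least 1 count in the Dam libraries, 6.15% in fusion library 1 and 11.8% in fusion library 2. Fusion library 1 thus had the most counts on the fewest fragments, 24.1 counts per covered fragment against 5.81 in fusion library 2 and 4.56 and 3.23 in the Dam libraries. Of the fragments covered in fusion library 1, 32.1% were also covered in fusion library 2, and of those covered in fusion library 2, 16.8% were covered in fusion library 1. The Dam libraries shared 39.2% and 39.1% of theirs. The 2 libraries of a group differed by more than sampling noise, with a chi-square per degree of freedom over 100 kb bins of 25.7 for the fusion and 4.13 for Dam. Libraries of genomic DNA carry no expression marker of the cell line. Fragments of LMNB1, the gene whose coding sequence is in the fusion plasmid, lie on chr5:126776623-126837020 (191 fragments). They had 59 and 41 counts with Dam and 107 and 53 with the fusion, not scaled to library size. Relative to the library totals above, the gene's counts were lower in both fusion libraries than in both Dam libraries. The 100 kb bin that holds the middle of the gene did not pass the test, at a log2 fold change of 0.27 ± 0.45 (SE, n = 2 per group, adjusted p = 0.763, edgeR's quasi-likelihood test). In that bin, after scaling to a common library size, the fusion libraries lay on either side of the Dam libraries. FKBP1A, the gene of the FKBP12 domain family that Shield-1 binds, had 16 and 15 counts with Dam and 149 and 4 with the fusion, so its fusion libraries lay on either side of the Dam libraries.

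Promoter windows show how the readout depends on where GATC motifs lie. Of the 4 genes shown, 3 have a promoter in a LAD bin, as defined below, and FGF1 has one in a bin of neither class. The windows below are the 250 bases upstream of 4 genes in RefSeq (GRCh38.p14), printed 5′ to 3′ on the strand of the gene, with the motif GATC, which reads the same on both strands, in capitals. Of 19537 GATC motifs in the RefSeq promoter windows, 19506 (99.8%) lay exactly between neighbouring fragments of the table. Of 35116 such windows, which also include 50 transcribed bases each, 41.7% hold at least 1. KCNC2 and OR5H14 are shown because their 100 kb bins were called higher with the fusion. ODAM and FGF1 are shown because, of 8 tested fragments that lie whole within such a window, theirs had the most and the least signal with the fusion.
KCNC2, chr12:75209840-75210089, minus strand: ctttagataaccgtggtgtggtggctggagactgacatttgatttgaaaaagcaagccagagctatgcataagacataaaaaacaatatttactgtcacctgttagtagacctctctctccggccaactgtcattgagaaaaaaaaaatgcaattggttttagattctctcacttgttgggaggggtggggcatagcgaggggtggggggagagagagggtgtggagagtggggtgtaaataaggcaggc
OR5H14, chr3:98147229-98147478, plus strand: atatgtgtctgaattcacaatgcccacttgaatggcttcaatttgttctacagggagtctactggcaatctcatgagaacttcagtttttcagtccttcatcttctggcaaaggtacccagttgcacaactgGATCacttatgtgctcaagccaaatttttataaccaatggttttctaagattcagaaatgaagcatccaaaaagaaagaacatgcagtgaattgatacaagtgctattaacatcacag
ODAM, chr4:70195475-70195724, plus strand: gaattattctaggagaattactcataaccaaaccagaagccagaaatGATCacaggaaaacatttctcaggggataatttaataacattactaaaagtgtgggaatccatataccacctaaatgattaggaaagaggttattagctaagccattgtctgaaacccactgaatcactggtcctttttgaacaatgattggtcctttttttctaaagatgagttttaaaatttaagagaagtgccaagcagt
FGF1, chr5:142698071-142698320, minus strand: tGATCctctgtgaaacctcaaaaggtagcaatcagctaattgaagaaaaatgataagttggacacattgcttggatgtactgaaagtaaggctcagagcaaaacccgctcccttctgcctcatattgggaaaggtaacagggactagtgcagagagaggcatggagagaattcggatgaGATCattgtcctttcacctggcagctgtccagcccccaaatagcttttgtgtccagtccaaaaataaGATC
The KCNC2 window holds 0 GATC motifs. It lies inside a fragment of 1145 bp that had 0 counts in all 4 libraries, while its 100 kb bin (chr12:75200001-75300000) had 29.9 and 33.6 CPM (counts per bin scaled to a common library size) with Dam and 97.4 and 66.3 with the fusion. In that bin both fusion libraries lay above both Dam libraries, and it was called higher (log2 fold change 1.37 ± 0.27, adjusted p = 0.0321, edgeR's quasi-likelihood test). The OR5H14 window holds 1 motif, which divides fragments of 600 and 269 bp that together had 10 and 0 counts in the Dam libraries and 0 and 6 in the fusion libraries. ODAM, the gene of an enamel-associated secreted protein, has 1 motif, followed by a fragment of 224 bp (chr4:70195526-70195749) with 0 and 0 counts with Dam and 79 and 3 with the fusion. FGF1, a fibroblast growth factor gene, has 3 motifs, and the fragment of 174 bp between the first and the second printed (chr5:142698142-142698315) had 10 and 0 counts with Dam and 0 and 5 with the fusion. The ODAM fragment was not called (adjusted p = 0.732, edgeR's quasi-likelihood test). Each of these promoter fragments had 0 counts in at least 1 of the 4 libraries, and the results below rest on sums over about 243 fragments per 100 kb bin.

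With the wild-type fusion, a larger share of the counts lay in LADs and a smaller share between them. LAD bins are the 9849 bins of 100 kb called higher, and iLAD (inter-LAD) bins the 10119 called lower, in separate, deeply sequenced bulk libraries of V133A Dam-LMNB1 against V133A Dam, so the classes use none of the 4 wild-type libraries. LAD bins took 40.5% and 40.7% of the counts in the Dam libraries and 56.3% and 55.5% in the fusion libraries. The iLAD bins took 32.5% and 32.2% with Dam and 19.7% and 19.9% with the fusion. On the log2 scale, the mean count per LAD bin over that per iLAD bin was 0.35 and 0.36 in the Dam libraries and 1.54 and 1.50 in the fusion libraries. Both fusion libraries lay above both Dam libraries by far more than the libraries of a group differed. The mean rise of 1.17 ± 0.03 (SD of the difference, n = 2 per group) is a 2.25-fold change in the ratio. An exact permutation test, two-sided, returned p = 0.333, the smallest value that 6 arrangements of 2 against 2 libraries allow. The rise was 1.54 in the bins that the authors mark as control LADs and iLADs, and 0.65 ± 0.26 where each covered fragment counted once. The same contrast rose by 2.75 ± 0.11 with V133A Dam, whose untethered libraries started lower (0.08 on average, against 0.35 for wild-type Dam) and whose fusion libraries ended higher (2.83 against 1.52). In bulk DNA, contact in more cells and more methylation per cell cannot be told apart.

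Bin by bin, most LAD bins had more signal with the fusion and most iLAD bins less. In 9837 tested LAD bins, the median CPM was 35.6 and 35.5 with Dam and 54.9 and 53.1 with the fusion. In 10000 tested iLAD bins it was 27.3 and 27.2 with Dam and 17.6 and 17.7 with the fusion. The median fitted log2 fold change was 0.61 over LAD bins (quartiles 0.30 and 0.89), -0.60 over iLAD bins and -0.09 over 7282 bins of neither class, against -0.01 over all 27212 tested bins. Of LAD bins, 89.7% had a positive log2 fold change, and so did 13.6% of iLAD bins. With V133A Dam the medians were 1.31 over LAD bins and -1.65 over iLAD bins. Both fusion libraries lay above both Dam libraries in 68.0% of LAD bins and 2.14% of iLAD bins, against 30.4% of all tested bins. They lay below both in 2.29% of LAD bins and 59.3% of iLAD bins, against 29.8% of all. Scaling by library totals moved the median of all bins to -0.17 and the medians of LAD and iLAD bins to 0.45 and -0.76, which keeps their distance and their signs. Across 27119 bins, the wild-type log2 fold change correlated with that of the deep map at r = 0.70 (rho = 0.73), a description, since neighbouring bins share domains and GATC content.

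Sorted by the deep map, the change with the fusion was graded. The mapped bins were ranked and divided into 10 groups (deciles) of 2712 bins, 2711 in the sixth. From the lowest decile up, the median wild-type log2 fold change was -0.67, -0.66, -0.59, -0.42, -0.20, 0.05, 0.29, 0.49, 0.68 and 0.81. In the lowest decile, the libraries' log2 CPM relative to their own medians was -0.35 and -0.37 with Dam and -1.04 and -1.05 with the fusion. In the highest decile it was 0.20 and 0.19 with Dam and 1.07 and 0.97 with the fusion. By counts, wild-type Dam alone therefore already had more signal in bins of high lamina contact than in bins of low contact. The fusion widened the difference in both libraries. Where each covered fragment counted once, little of the difference with Dam alone remained. The log2 LAD over iLAD contrast was then 0.02 and 0.11 in the Dam libraries and 0.54 and 0.90 in the fusion libraries. The 2 lowest deciles had nearly the same wild-type median (-0.67 and -0.66), while the V133A medians there were -1.98 and -1.78.

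**Figure D1:**
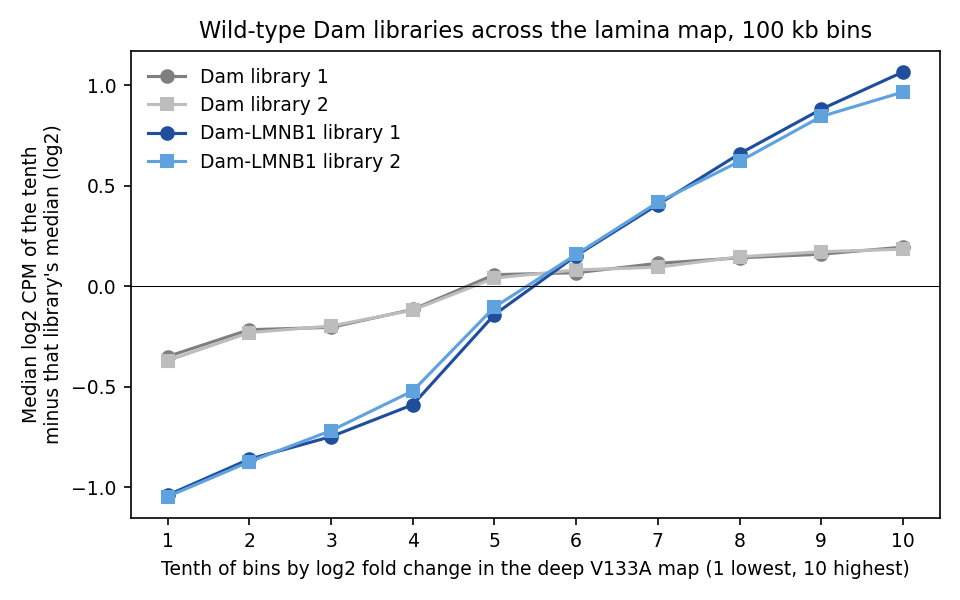
Median log2 CPM of each decile of 100 kb bins, relative to the median of the same library, in the 4 wild-type libraries, with deciles ordered on the horizontal axis by the deep V133A lamina map. The 2 fusion libraries run from -1.04 and -1.05 to 1.07 and 0.97, and the 2 Dam libraries from -0.35 and -0.37 to 0.20 and 0.19.

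In bins of 1 Mb, most of the lamina pattern could be called bin by bin. Of 2779 tested bins, 978 were higher with the fusion (35.2%) and 814 lower (29.3%), with median log2 fold changes of 0.63 and -0.64 (edgeR's quasi-likelihood test, Benjamini-Hochberg adjusted p under 0.05). Bins called higher had 2.57 protein-coding genes per Mb and bins called lower 12.3, against 6.83 over all tested bins. Of bins that consist of 10 LAD bins, 511 of 519 were called higher and 0 lower, with a median of 0.76. Of bins of 10 iLAD bins, 333 of 389 were called lower and 0 higher, with a median of -0.64. Bins with 5 to 9 LAD bins were called higher in 399 of 509 cases, those with 1 to 4 in 62 of 384, and those with 0 LAD bins in 4 of 1236. With V133A Dam, 950 of the 978 and 769 of the 814 were called in the same direction. Library totals in place of TMM gave 749 higher and 1159 lower bins, since they moved the median of all 1 Mb bins from -0.04 to -0.22. Without Dam library 1 the calls were 810 higher and 443 lower, and without Dam library 2 they were 809 and 428. In every fit that left out 1 of the 4 wild-type libraries, 734 of the 978 and 301 of the 814 were called again.

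The longest stretches of called 1 Mb bins, chosen after their values were seen, were LADs of many megabases and gene-dense arms. On the long arm of chromosome 13, 41 consecutive bins (chr13:53000001-94000000) were called higher, with a median log2 fold change of 0.85. This stretch took 3.59% of all counts in each Dam library and 5.70% and 5.34% in the fusion libraries. It holds 48 placed genes, the 4 longest of which are GPC5 and GPC6, which encode cell-surface glypicans, the protocadherin gene PCDH9, and KLF12, a transcriptional repressor gene. On chromosome 12, a stretch of 16 Mb (chr12:77000001-93000000) with the neuronal genes NAV3, SYT1 (synaptotagmin 1) and PPFIA2 and the glycosyltransferase gene MGAT4C took 0.644% and 0.645% of the counts with Dam and 1.03% and 0.970% with the fusion. Stretches of 16 Mb on chromosome 3 (chr3:74000001-90000000) and chromosome 4 (chr4:57000001-73000000) had medians of 0.78 and 0.67. The first holds the axon guidance receptor genes ROBO1 and ROBO2, the adhesion gene CADM2 and the ephrin receptor gene EPHA3. The second holds ADGRL3, which encodes a latrophilin, the bicarbonate transporter gene SLC4A4, EPHA5, another ephrin receptor gene, and the protease gene ADAMTS3. In all 4 stretches both fusion libraries took a larger share of the counts than both Dam libraries.

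The longest stretches called lower lay on chromosomes 19, 1 and 22. On chromosome 19, 27 Mb (chr19:29000001-56000000) with 715 placed genes took 0.683% and 0.700% of the counts with Dam and 0.319% and 0.388% with the fusion, a median log2 fold change of -0.76. Its longest genes are the developmental zinc finger genes ZNF536 and TSHZ3, SIPA1L3, and RYR1, the calcium release channel of skeletal muscle. A second stretch on chromosome 19 (chr19:3000001-22000000, 489 genes), with the calcium channel gene CACNA1A and the insulin receptor gene INSR, had a median of -0.79. On chromosome 1, 23 Mb (chr1:24000001-47000000, 337 genes), with MACF1, which links actin and microtubules, took 0.805% and 0.785% of the counts with Dam and 0.406% and 0.425% with the fusion. On chromosome 22, 20 Mb (chr22:28000001-48000000, 262 genes) took 0.661% and 0.647% with Dam and 0.344% and 0.345% with the fusion. In each of these 4 stretches both fusion libraries had a smaller share than both Dam libraries.

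At 100 kb, far fewer bins could be called, and the calls favoured bins that rose. Of 27212 tested bins, 614 were higher with the fusion (2.26%) and 59 lower (0.217%), while 4173 and 1574 had an unadjusted p under 0.05 (edgeR's quasi-likelihood test over 8 libraries in 4 groups). Of the 614 bins, 577 were LAD bins and the other 37 had no value in the deep map. Of the 59, 43 were iLAD bins, 13 were of neither class, 1 was a LAD bin and 2 had no value. The bins called higher had a median CPM of 36.7 and 37.7 with Dam and 102 and 80.1 with the fusion, a median log2 fold change of 1.27. They made up 12.9% of the highest decile of the deep map and 0 of the 6 lowest deciles. Of them, 596 were also among the 7603 bins (27.9%) called higher with V133A Dam, and 40 of the 59 were among the 6661 (24.5%) called lower. These counts depend on the libraries in the fit. Leaving out Dam library 1, Dam library 2 or fusion library 1 gave 0 higher bins and 3, 0 and 0 lower ones, leaving out fusion library 2 gave 1627 and 945, and the 4 wild-type libraries alone gave 0 and 0. Library totals in place of TMM gave 16 higher and 22 lower bins, covered fragments in place of counts 450 and 176, and DESeq2 2905 and 950. In each of these fits all 614 bins kept a positive log2 fold change. The 59 lower bins kept a negative one except with covered fragments, where 48 of 59 did and 10 were called lower again.

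Among the 6 higher bins with the smallest p, 3 lay on chromosome 13, 2 on chromosome 4 and 1 on chromosome 3, and none holds the midpoint of a protein-coding gene. The bin chr3:164900001-165000000, a LAD bin, had 35.4 and 33.3 CPM with Dam and 149 and 114 with the fusion. It rose 3.82-fold (log2 1.93 ± 0.26, adjusted p = 0.0142, edgeR), and the groups did not overlap. In single cells of the series with a V133A Dam-tdTomato-LMNB1 fusion, this bin was in contact (counts at or above those expected from the bulk V133A Dam libraries) in 72.2% of 36 cells of batch 2. The bin chr4:132900001-133000000 had 23.4 and 24.1 CPM with Dam and 99.2 and 80.4 with the fusion (log2 1.92 ± 0.29, adjusted p = 0.0223, edgeR). The other bin of chromosome 4, chr4:175500001-175600000, had the largest change of the 6, from 19.0 and 22.2 CPM to 93.6 and 71.0 (log2 2.00 ± 0.32). Both lay in LADs and both fusion libraries stood above both Dam libraries. On chromosome 13, the bin chr13:62000001-62100000 had 206 and 205 CPM with Dam, several times the median bin, and 561 and 453 with the fusion (log2 1.30 ± 0.16, adjusted p = 0.0142, edgeR). Its neighbour chr13:62200001-62300000 had 101 and 109 CPM with Dam and 295 and 222 with the fusion, and chr13:70000001-70100000 had 59.8 and 68.5 against 187 and 145. In each of these 6 bins fusion library 1 was higher than fusion library 2.

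**Figure D2:**
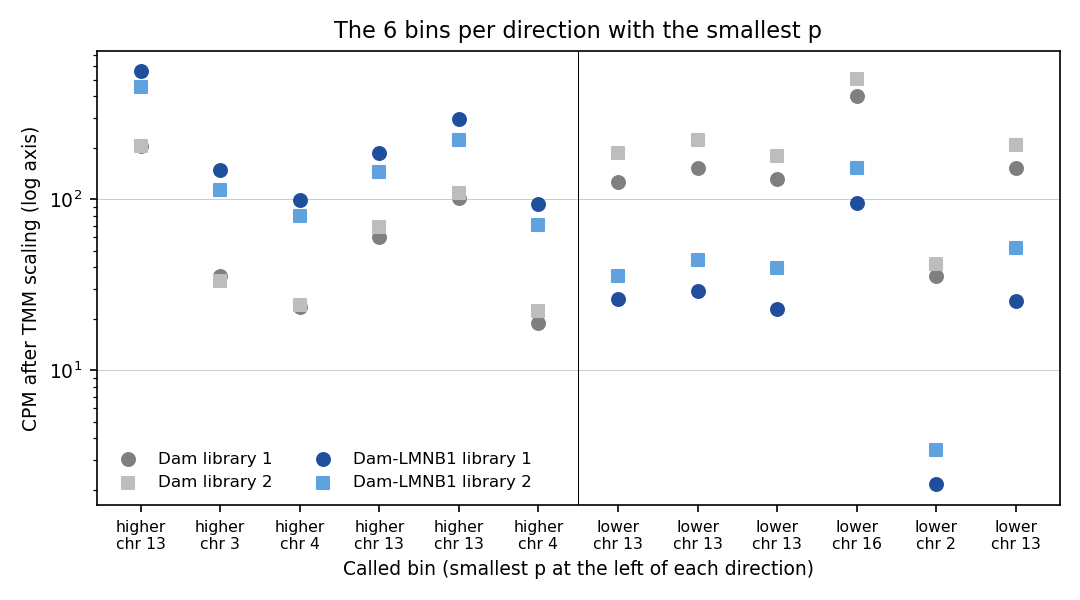
CPM after TMM scaling, on a log axis, of the 6 bins with the smallest p in each direction, in the 2 Dam libraries (grey) and the 2 fusion libraries (blue). In each of the 12 bins the fusion libraries lie on 1 side of both Dam libraries, from 149 and 114 against 35.4 and 33.3 CPM in the bin on chromosome 3 to 2.15 and 3.41 against 35.6 and 42.0 CPM in the bin on chromosome 2.

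The 614 bins formed 494 runs of adjacent called bins, and the 5 longest held 0 placed protein-coding genes. The longest had 6 bins (chr1:194800001-195400000), with a median CPM of 42.6 and 44.3 with Dam and 124 and 106 with the fusion. A run of 5 bins on chromosome 13 (chr13:61800001-62300000) had 203 and 205 CPM with Dam and 402 and 415 with the fusion. A run of 4 bins on chromosome 4 (chr4:116500001-116900000) had the largest median log2 fold change of the 5, 1.59. Without a threshold on p, the longest series of adjacent tested bins with a positive log2 fold change covered 15.8 Mb of chromosome 13 (chr13:78700001-94500000, 158 bins, median 0.86). It overlaps GPC5, GPC6, DCT, a melanin synthesis gene, and RBM26, and 51 of its bins were called. The next covered 15.0 Mb of chromosome 1 (chr1:185100001-200100000, 150 bins, median 0.93, 48 called), with HMCN1, which encodes an extracellular matrix protein, the potassium channel gene KCNT2, BRINP3 and DENND1B. The longest series of negative values were 7.4 Mb of chromosome 19 (chr19:31200001-38600000, 74 bins, median -0.88, with 137 genes) and 6.6 Mb of chromosome 3 (chr3:47000001-53600000, 66 bins, median -0.88, with 150 genes). The latter holds the chromatin genes SETD2, a histone methyltransferase, and SMARCC1, a remodelling subunit, beside DOCK3 and MAP4.

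A block of chromosome 13 had a high level in all 4 libraries. Of the 93 tested bins without a value in the deep map, 81 lay on chromosome 13 between chr13:61800001 and 93700000, in the region of the longest stretch above. Their median CPM was 124 and 120 with Dam and 235 and 207 with the fusion, against 31.2, 31.2, 30.8 and 30.7 over all tested bins. In 80 of the 81 both fusion libraries lay above both Dam libraries, and 37 were called higher. Their median log2 fold change of 0.81 equalled that of the highest decile of mapped bins. The level is high in both groups, and the median fold change lies above the LAD median of 0.61, within the LAD quartiles. Over the 983 tested bins of chromosome 13, 11.8% were called higher, against 2.26% of all bins, and the median bin of chromosome 13 held 429 and 190 counts in the fusion libraries against 301 and 144 over all bins. More counts per bin give a narrower error, and the part of this in the share of calls was not tested.

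The 59 lower bins included many that hold few GATC fragments. Of them, 28 had fewer than 150 fragments per 100 kb, against 416 of all 27212 tested bins (1.53%). The longest run had 11 bins (chr13:16300001-17400000), with a median of 80 fragments per bin and 0 genes, and a median CPM of 116 and 155 with Dam and 17.7 and 39.6 with the fusion. The second had 8 bins on chromosome 1 (chr1:122900001-123700000), with 68.6 and 98.9 CPM with Dam and 16.0 and 29.7 with the fusion. Both lie in what the hg38 assembly models as centromere sequence. Of the 6 lower bins with the smallest p, 4 were in the run on chromosome 13, such as chr13:16700001-16800000 with 126 and 187 CPM with Dam and 26.1 and 35.8 with the fusion (log2 -2.34 ± 0.30, adjusted p = 0.0142, edgeR). Counted by covered fragments, none of these 4 was called, with log2 fold changes of -0.27, -0.027, -0.10 and 0.058 (adjusted p from 0.449 to 0.950, edgeR). The last is that of chr13:17000001-17100000, at 153 and 207 CPM with Dam and 25.5 and 52.0 with the fusion. The gene-free iLAD bin chr16:46400001-46500000, also among the 6, went from -1.88 by counts to -0.16 by covered fragments. The 31 lower bins with 150 fragments or more held 32 placed genes, and 28 of them were iLAD bins. Of the 6 bins with the smallest p, chr2:218900001-219000000 is the only one with placed genes: it holds FEV, the transcription factor gene of serotonin neurons, the crystallin gene CRYBA2 and CDK5R2, an activator of CDK5. It had 35.6 and 42.0 CPM with Dam and 2.15 and 3.41 with the fusion (log2 -3.82 ± 0.58, adjusted p = 0.0223, edgeR), 14.2-fold lower and with no overlap. Of the 59 bins, 5 lay on chromosome 8.

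At the level of single DpnI fragments no rise could be called. Of 366051 tested fragments, 0 were called higher (0.0%) and 34 lower (0.00929%), while 338 and 4341 had an unadjusted p under 0.05 (edgeR's quasi-likelihood test). Simulated rises and falls of log2 2 and 3 in 100 fragments each, with all other fragments unchanged, were recovered in 0 and 0 cases. The fitted sign was right in 42 and 48 of them. Simulated fragments that failed the count filter had no fit and were counted as not right. The share of right signs among fitted fragments is therefore not known. In 100 kb bins 57 of 100 and 85 of 100 were recovered. Of the 34 fragments, 22 were on chromosome 16, and 21 of those lie on either side of the longest fragment of that chromosome (chr16:38276348-46381704, 8105357 bp), which spans a heterochromatin gap of the assembly. On its right, 15 lie close to its end in chr16:46385647-46401874, while the 6 on its left (chr16:34581975-34595444) do not adjoin it. Together the 21 took 13754 and 11596 counts in the Dam libraries and 6092 and 6272 in the deeper fusion libraries. The fragment with the smallest p, chr16:46390069-46390538, had 2248 and 1586 counts with Dam (1312 and 1396 CPM) and 900 and 841 with the fusion (110 and 399 CPM). The groups do not overlap. Its fitted log2 fold change of -2.41 has an SE of 0.06, smaller than the gap between the 2 fusion libraries. Outside chromosome 16, the fragment with the smallest p was chr2:32915072-32918563, with 820 and 1896 counts with Dam and 577 and 433 with the fusion. Leaving out Dam library 1, Dam library 2 or fusion library 1 gave 14, 8 and 12 lower fragments, leaving out fusion library 2 gave 103, and the 4 wild-type libraries alone gave 0.

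Fragments seen only with the fusion lay in LADs more often than those seen only with Dam, but so did fragments seen in all 4 libraries. Of all fragments of chromosomes 1 to 22, 32.7% lie in LAD bins. Of the 35403 covered in both fusion libraries and neither Dam library, 55.6% did, and of the 157696 covered in both Dam libraries and neither fusion library, 29.2%. Of the 53974 covered in all 4 libraries 57.8% lay in LAD bins, and of the 2023117 covered in any of them 38.5%. Fragment length made little difference to the direction. The rise of the LAD over iLAD contrast was 1.16 for fragments under 100 bp, highest at 1.45 for 100 to 199 bp, and then 1.35, 1.25, 1.21 and 1.15 with increasing length, down to 0.98 for fragments of 2000 bp or more. In all 7 length classes both fusion libraries stood above both Dam libraries.

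By chromosome, the median log2 fold change was highest on chromosomes 4 (0.49), 13 (0.36), 5 (0.23) and 3 (0.23). It was lowest on chromosomes 19 (-0.81), 22 (-0.74), 17 (-0.59) and 16 (-0.52). Chromosome 4, with 4.01 placed genes per Mb, took 6.86% and 6.85% of the counts with Dam and 8.78% and 8.59% with the fusion, and 66.5% of its 1 Mb bins were called higher. Chromosome 19, with 25.0 genes per Mb, took 1.31% and 1.36% with Dam and 0.650% and 0.759% with the fusion, and 86.0% of its 1 Mb bins were called lower. On chromosome 22, 82.1% were called lower. The difference between LAD and iLAD bins was seen within chromosomes as well as between them. On 21 of 22 chromosomes the contrast of both fusion libraries exceeded that of both Dam libraries, with the rise at 1.29 on chromosome 13 and 0.44 on chromosome 22, which has only 6 LAD bins. The exception was chromosome 19, which has 3 LAD bins.

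**Figure D3:**
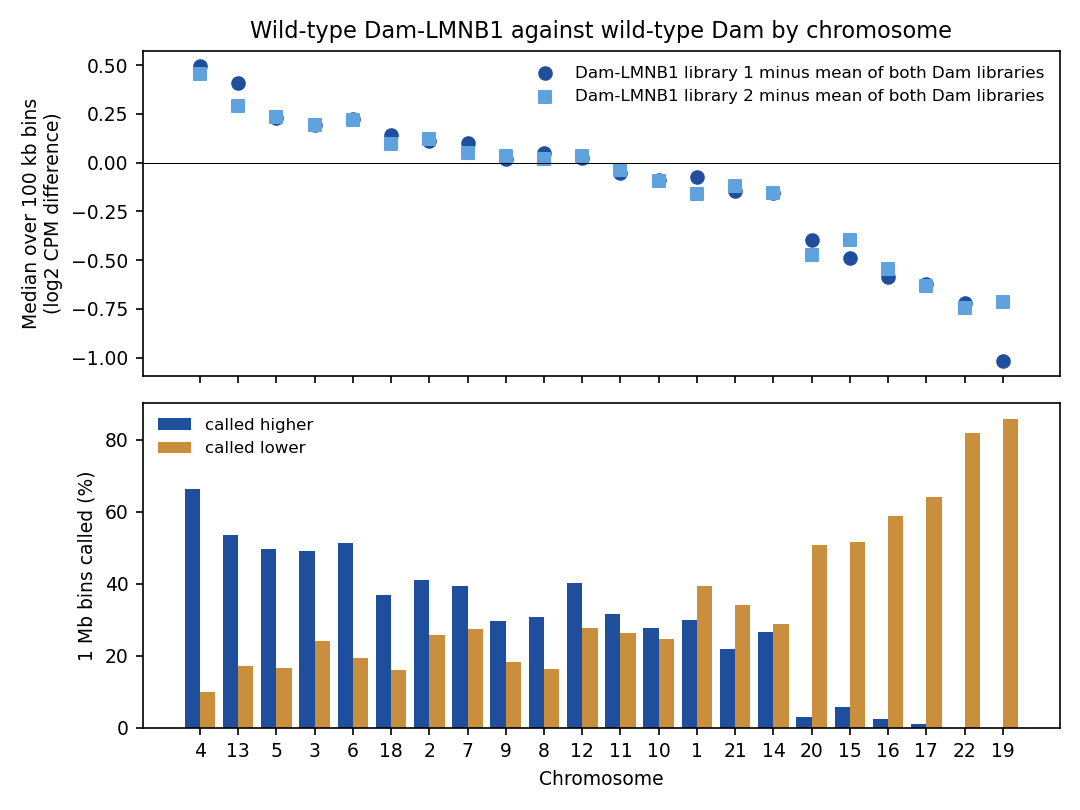
Upper panel: median over 100 kb bins of the log2 CPM difference of each fusion library from the mean of both Dam libraries, by chromosome, ordered by the fitted median. Lower panel: percentage of 1 Mb bins called higher and called lower, from 66.5% higher on chromosome 4 to 86.0% lower on chromosome 19.

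Across LAD edges the fusion signal rose over several bins. At 243 edges, where 5 or more LAD bins adjoin 5 bins that are not LAD (a definition chosen after seeing the data), the median wild-type log2 fold change was -0.16 at 500 kb outside and 0.20 in the last bin outside. It was 0.35 in the outermost LAD bin, 0.48 at 100 kb inside and 0.55 at 300 kb inside. With V133A Dam it went from -0.46 at 500 kb outside to 0.80 in the outermost LAD bin and 1.18 at 300 kb inside. Both fusion libraries contributed: relative to the Dam libraries they stood at -0.14 and -0.17 at 500 kb outside and at 0.54 and 0.54 at 300 kb inside. The Dam libraries stood at 0.19 and 0.13 outside and 0.13 and 0.10 inside. A stricter rule asked for 5 LAD bins and 5 iLAD bins with at most 2 uncalled bins between them, and left only 16 edges. There the median was -0.34 at 500 kb outside, -0.52 at 300 kb outside and -0.13 in the last bin outside, which may be uncalled. At 100 kb inside it was 0.47.

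**Figure D4:**
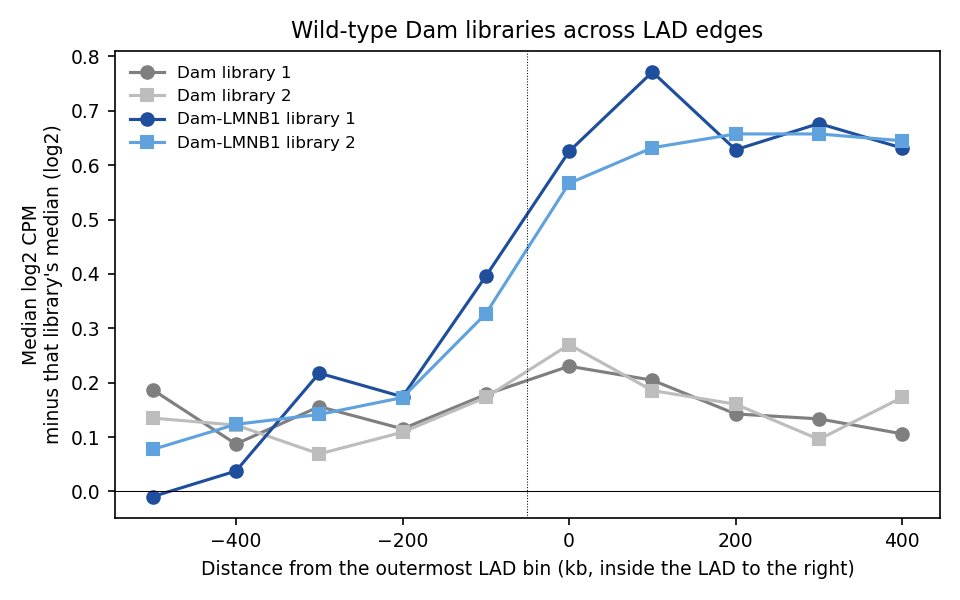
Median log2 CPM, relative to the median of the same library, at 243 LAD edges against the distance in kb from the outermost LAD bin, with the inside of the LAD to the right. The fusion libraries rise from -0.01 and 0.08 at 500 kb outside to 0.68 and 0.66 at 300 kb inside, while the Dam libraries stay between 0.07 and 0.27.

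Protein-coding genes as a whole lay in bins that fell. Over 18925 genes placed by their midpoints, the median bin log2 fold change was -0.44. Of these genes, 0.402% were in bins called higher and 0.169% in bins called lower, and 13.3% and 52.7% in 1 Mb bins called higher and lower. The families are described by their counts and medians beside these values, and none was tested as a group. The clustered protocadherins, adhesion proteins that give neurons an identity, had 53 members in 7 bins of chromosome 5 with a median of 0.80, and 0 members called in either direction. Of them, 45 lay in 4 bins where both fusion libraries exceeded both Dam libraries, against 11.4% of all placed genes. However, 52 of the 53 lay in LAD bins, and 68.0% of all LAD bins had both fusion libraries above both Dam libraries. The 2 bins of 1 Mb that hold the protocadherins, at log2 fold changes of -0.12 and 0.05, were not called. The bin of the 21 gamma protocadherins from PCDHGA1 to PCDHGC4 (chr5:141400001-141500000) had 21.4 and 21.9 CPM with Dam and 52.1 and 23.0 with the fusion, so the rise rested mostly on fusion library 1. The 13 contactins and contactin-associated proteins had a median of 0.71, with 8 in 1 Mb bins called higher and 2 in bins called lower. The 30 cadherins had a median of 0.45 (15 and 5) and the 25 glutamate receptor subunits 0.36 (12 and 9). The 16 GABA-A receptor subunits had a median of -0.10 (8 and 6), with 6 positive and 10 negative values. The 43 voltage-gated potassium channels had a median of -0.20, with 9 in 1 Mb bins called higher and 17 in bins called lower. Among them, KCNC2, which encodes Kv3.2 of fast-spiking neurons, lay in a bin called higher: 11.8 and 28.1 CPM with Dam and 68.7 and 49.4 with the fusion (log2 1.59 ± 0.37, adjusted p = 0.0406, edgeR), without overlap.

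The UGT2 enzymes, which glucuronidate steroids and drugs in the liver, occupy 8 bins of chromosome 4, all in LADs. Their 10 members had a median of 0.56, against a median of 0.61 over all tested LAD bins. All 10 lay in 2 bins of 1 Mb, both called higher. Of 1 Mb bins that consist of 10 LAD bins, 511 of 519 were called higher. The bin of UGT2B7 had 47.4 and 38.9 CPM with Dam and 80.9 and 81.6 with the fusion, without overlap, but was not called (log2 0.91 ± 0.25, adjusted p = 0.0631, edgeR). The bin of UGT2B17 had 59.0 and 42.6 CPM with Dam and 13.2 and 68.0 with the fusion, so the fusion libraries lay on either side of the Dam libraries. Olfactory receptors, a family of odorant sensors, had 387 members in 167 bins with a median of 0.19. Among these members, 149 lay in 1 Mb bins called higher and 71 in bins called lower. Of them, 5 were in bins called higher, and OR5H1, OR5H14 and OR5H15 share 1 bin (chr3:98100001-98200000) with 60.0 and 43.5 CPM with Dam and 123 and 93.6 with the fusion (log2 1.06 ± 0.26, adjusted p = 0.0449, edgeR). OR5H2 lies in the next bin, with 53.3 and 47.5 CPM with Dam and 103 and 99.1 with the fusion. The groups do not overlap in either bin.

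Other families had negative medians, as all placed genes did, and several were close to the median of -0.44 and the 52.7% in 1 Mb bins called lower over all genes. The 81 cytosolic ribosomal protein genes had a median of -0.52, with 49 in 1 Mb bins called lower and 3 in bins called higher. The 43 proteasome genes had a median of -0.71 (29 lower, 1 higher) and the 37 genes of lamins and nuclear envelope proteins -0.69 (19 lower, 5 higher). The 22 PSG and CEACAM genes, pregnancy-specific glycoproteins and cell adhesion molecules clustered on chromosome 19, had a median of -1.19. All 22 lay in 5 bins of 1 Mb that were called lower. On chromosome 19 as a whole, 86.0% of 1 Mb bins were called lower, and the median over 100 kb bins was -0.81. The 497 genes of the ZNF series, mostly KRAB zinc finger repressors, had a median of -0.69, with 364 in 1 Mb bins called lower and 21 in bins called higher. An exception was ZNF804A, a brain-expressed zinc finger gene in a LAD of chromosome 2, whose bin (chr2:184700001-184800000) had 34.3 and 26.9 CPM with Dam and 88.5 and 89.3 with the fusion (log2 1.53 ± 0.27, adjusted p = 0.0225, edgeR). Histone genes (79, in 19 bins) had a median of -0.16 over genes, above that of all genes, and -0.63 over bins, and keratin-associated protein genes (94, in 18 bins) -0.52. The 17 genes of interferon alpha and its relatives, secreted antiviral signals, lay in 6 bins with a median of -0.37, and 1 and 0 were in 1 Mb bins called higher and lower.

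HOX genes, the patterning factors of the body axis, lay in 9 bins of 4 clusters. The bin with the 10 genes from HOXA2 to HOXA13 (chr7:27100001-27200000) had 17.5 and 14.8 CPM with Dam and 35.6 and 22.0 with the fusion. The groups do not overlap, but the bin was not called (log2 0.84 ± 0.47, adjusted p = 0.319, edgeR). With V133A Dam, its fitted log2 fold change was -1.18. Over 39 HOX genes the wild-type median was 0.27 and the V133A median -1.35, but over the 9 bins the wild-type median was -0.13, so its sign depends on counting genes that share a bin. In the interaction test the difference between the effects was not called in any HOX bin (adjusted p from 0.0975 for the HOXB13 bin up, edgeR). The medians over genes of all 17 families kept their sign when library totals or DESeq2's size factors replaced TMM, but those of the olfactory receptors and HOX genes came down to 0.03 and 0.11 with library totals, which shift all bins. The members were counted by gene, so genes that share a bin are not separate measurements.

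**Figure D5:**
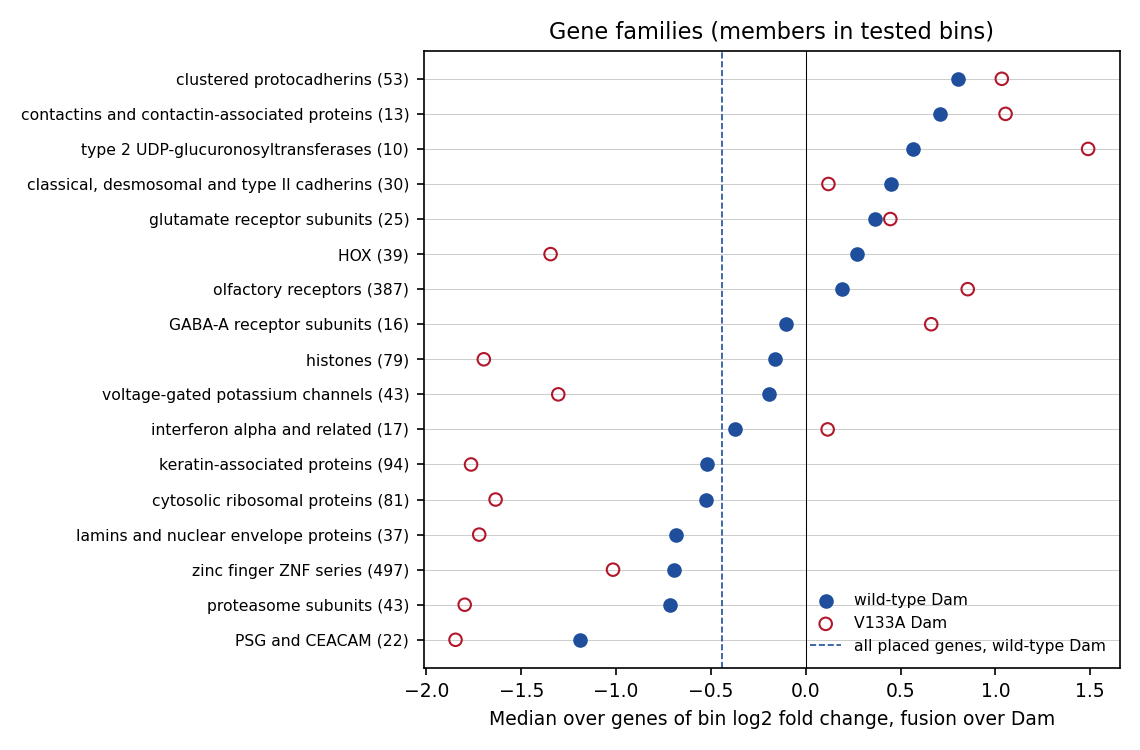
Median over member genes of the log2 fold change, fusion over Dam, of each gene's 100 kb bin, for 17 gene families, with wild-type Dam (filled) and V133A Dam (open), and the number of members in tested bins after each name. Wild-type medians run from -1.19 for PSG and CEACAM to 0.80 for clustered protocadherins, and the dashed line marks all placed genes at -0.44.

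Within the LAD class, bins without genes and with few GATC motifs responded more. The median log2 fold change was 0.62 in 8178 LAD bins with 0 placed genes, 0.53 in 1370 with 1 gene and 0.47 in 289 with 2 or more. LAD bins with a gene at 1 CPM or more in both untreated RNA libraries of the series had a median of 0.53 and those with a gene below 1 CPM in both 0.49, close to each other. Divided into 5 groups of equal size by fragments per bin, LAD bins went from a median of 0.70 in the group with fewest fragments (median 199 per bin) to 0.48 in the group with most (251), and the share called higher from 8.74% to 3.00%. The deep map differed in the same way between bins with 0 and with 2 or more genes (1.19 and 0.86), and the contributions of genes, motif density and lamina contact were not tested.

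The bins called higher were poor in genes and often in contact with the lamina in single cells. Of them, 577 were LAD bins and 89.1% held no placed gene. Of all 9837 tested LAD bins, 8178 held none, so gene-free bins were common in the class as a whole. The bins called higher held 76 placed genes, 1.24 per Mb against 6.95 over all tested bins. Of 71 of these genes with an RNA value, 45.1% reached 1 CPM in the untreated RNA libraries, against 67.7% of 18177 genes in all tested bins. The most abundant was SLC6A15, an amino acid transporter gene of neurons, at 123 and 126 CPM of RNA, in a bin with a log2 fold change of 1.15. It was followed by SMIM30, WASL, an actin nucleation gene, CWC22, a splicing factor gene, and GALNT13. Bins called higher were in contact in 63.7% of bin and cell pairs over 36 single cells, against 39.9% for all tested bins and 34.4% for bins called lower. Among the bins called lower the share was 54.0% in the 28 with under 150 fragments, against 54.2% over all 416 tested bins with under 150. In the 31 called lower with 150 fragments or more it was 16.8%. These cells carried V133A Dam, and cells are not replicates, so the shares are descriptions.

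The effect of the fusion was compared directly between wild-type and V133A Dam with an interaction term. In 125 bins (0.459%) the effect was higher with wild-type Dam, and 118 of them were iLAD bins. Over the 125 bins the median log2 fold change was -0.08 with wild-type and -4.04 with V133A Dam. In 66 bins (0.243%) it was lower, and 62 of them were LAD bins, with medians of 0.42 and 2.25. The called differences thus lay on the side of a smaller change with wild-type Dam in both classes. In the iLAD bin of MUC22, a mucin gene (chr6:31000001-31100000), wild-type Dam gave 23.1 and 24.4 CPM and its fusion 23.6 and 17.1. V133A Dam gave 30.9 and 39.1 CPM there and its fusion 0.526 and 0.420. The difference of the log2 effects was 5.93 ± 0.85 (adjusted p = 0.0423, edgeR), from 4 and 3 counts in the V133A fusion libraries. In the LAD bin chr13:90400001-90500000, wild-type Dam gave 102 and 93.8 CPM and its fusion 145 and 135, while V133A Dam gave 60.0 and 69.2 and its fusion 298 and 281. There the difference was -1.65 ± 0.29 (adjusted p = 0.0423, edgeR), and neither pair of groups overlapped. The counts of called bins became 252 and 22 with library totals, 131 and 161 with DESeq2's size factors, 430 and 538 with covered fragments and 1818 and 2513 with DESeq2. With the replicate block, and in each fit without 1 of the Dam libraries (either variant) or without wild-type fusion library 1, they became 0 and 0, while leaving out wild-type fusion library 2 gave 456 and 412, V133A fusion library 1 1914 and 623, and V133A fusion library 2 1817 and 438.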

How the data were processed

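Members and gene lists were chosen with earlier results of these data known. For 8 libraries of 4 Dam variant groups, the authors deposited counts per DpnI fragment, which were not scaled; the 4 wild-type libraries are the ones reported. Per the labels, all came from transiently transfected HEK293T cells. Limma, Salmon, DESeq2, bedtools 2.28, SAMtools 1.9, BWA 0.7.15-r1140 and Trimmomatic 0.39 are named, with the build hg38, in the submitters' processing notes; aligner settings were not given in the sources used here. For classes and descriptions, other deposited values were used: whole-number counts per 100 kb bin for 4 deep bulk libraries and 36 single cells of batch 2, the authors' marks of control LAD and iLAD bins (0 or 1), and estimated counts per gene for 2 untreated RNA libraries, rounded and scaled to CPM by library totals. The authors' deposited log2 fold changes per bin were not used. Another 18 columns of batch 1 cells were not used. Whether a bulk count stands for a read or for a pair is not stated in those sources.

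Fragment counts were summed to 27599 bins of 100 kb on chromosomes 1 to 22 by fragment midpoint. Tests were edgeR 4.0.16 quasi-likelihood fits in R 4.3.3 over the 8 libraries, with filterByExpr (minimum count 10), TMM scaling and a Benjamini-Hochberg adjusted p under 0.05. CPM are TMM-scaled. The 1 Mb bins, tested in the same way, were planned as an alternative and are reported as a result of their own. The interaction subtracted the V133A effect from the wild-type effect. LAD and iLAD classes came from the same test on the deep libraries. Contrasts were compared with an exact permutation test. Of 19126 autosomal protein-coding genes in RefSeq (GRCh38.p14), 153 out of positional order were left out and 18973 placed by midpoint; 95.9% matched an RNA gene. A gene thus stands for the bin of its midpoint. Named bins were the 6 with the smallest p per direction, the 5 longest runs of called bins and the 2 longest of 1 sign; named genes were the longest in a region and up to 4 called members of each of 17 families per direction. Some genes that this rule names are not reported here. Bins of chromosome 8 are counted only. The fits were tested on simulated counts, where 6 unchanged bins were called. DESeq2 1.42.0, other scalings and filters, the replicate block, covered fragments, counts capped at 5 per fragment, chromosome X and leaving out each library were alternatives. Python 3.11.15 with pandas 2.3.3, NumPy 2.4.6 and matplotlib 3.10.9 did the rest. At a median of 101 to 301 counts per bin in the wild-type libraries, counting error alone is small beside the spread between libraries, as the chi-square values show, and PCR copies are not independent molecules.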

Additional observations from a re-analysis of the deposited data

Results flagged for a closer look

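The effect of the fusion differed between wild-type and V133A Dam, by the interaction test of edgeR's quasi-likelihood fit, in 125 bins with a higher and 66 with a lower effect under wild-type Dam. The 6 bins named by rule are those with the smallest p per direction, all at an adjusted p of 0.0423. Those with a higher effect under wild-type Dam were the bin of MUC22 on chromosome 6, with a difference of 5.93 on the log2 scale, the bin of RPRD1B and TTI1 on chromosome 20 (chr20:38000001-38100000) with 4.29, and the bin of KANSL1 on chromosome 17 (chr17:46100001-46200000) with 3.25. KANSL1 encodes a subunit of a histone acetyltransferase complex. Its bin had 46.1 and 56.8 CPM with wild-type Dam and 82.9 and 50.5 with its fusion, which overlap, against 98.9 and 93.6 CPM with V133A Dam and 17.2 and 9.10 with its fusion, which do not. The RPRD1B and TTI1 bin had 36.0 and 32.1 CPM with wild-type Dam and 20.1 and 24.3 with its fusion, against 53.0 and 61.7 and then 2.50 and 1.26 with V133A Dam.

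Those with a lower effect under wild-type Dam were gene-free LAD bins: chr14:43300001-43400000 with a difference of -2.56, chr13:90400001-90500000 with -1.65 and chr13:71100001-71200000 with -1.62. The bin of chromosome 14 had 41.9 and 33.3 CPM with wild-type Dam and 29.8 and 30.3 with its fusion, below both Dam libraries, against 21.0 and 22.9 and then 87.8 and 119 with V133A Dam. The bin at chr13:71100001 had 103 and 92.9 CPM with wild-type Dam and 154 and 159 with its fusion, against 69.1 and 62.0 and then 301 and 343 with V133A Dam.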

How the results depend on the processing

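With 2 libraries per group, calls at 100 kb move with the setting. For higher and lower bins (614 and 59), library totals gave 16 and 22, DESeq2 2905 and 950, the 4 wild-type libraries alone 0 and 0, and 1 Mb bins 978 and 814. Covered fragments gave 176 lower bins and counts capped at 5 per fragment, an alternative chosen after seeing the data like leaving out V133A libraries and the other 1 Mb fits, gave 103. Leaving out 1 library gave 0 to 1627 higher and 0 to 945 lower bins. The 1 Mb calls ranged from 809 to 893 higher and from 428 to 679 lower without 1 wild-type library. The LAD median of 0.61 became 0.45 with library totals, 0.37 with covered fragments, 0.42 with capped counts and 0.84 in control bins, with 0.57 to 0.62 when 1 library was left out. The iLAD median of -0.60 became -0.62 with DESeq2's size factors, -0.76 with library totals, -0.35 with covered fragments, -0.40 with capped counts and -0.71 in control bins, with -0.63 to -0.57 when 1 library was left out. Fragments called higher went from 0 to 2 with library totals, and those called lower from 34 to 0 with the 4 wild-type libraries alone and to 8 to 103 without 1 library. Interaction calls (125 and 66) became 252 and 22 with library totals, 1818 and 2513 with DESeq2, 430 and 538 with covered fragments, 1046 and 1272 with capped counts, and 0 to 1914 and 0 to 623 without 1 library; DESeq2's size factors gave 161 lower. Calls not listed stayed within 1.5 times. The causes were not tested.

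No pairing by replicate number was seen across bins: deviations of same-numbered libraries correlated at -0.0004 to 0.03. These correlations cannot show whether the libraries were prepared in pairs. With the replicate block, 442 higher and 42 lower bins, 979 and 830 1 Mb bins, 0 and 38 fragments, and 0 and 0 interaction bins were called.

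Of the fold changes of named bins under each alternative, 286 kept direction and side of the threshold, 97 lost it, 3 passed it and 5 changed sign. These were chr13:17000001 (0.058) and chr14:43300001 (0.066) with covered fragments, and chr17:46100001 at -0.43 with covered fragments, -0.28 with capped counts and -0.023 without wild-type fusion library 1, in a range up to 0.69 without fusion library 2.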
